A study of Mus musculus with 56 samples.

Results

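Integrins are cell-surface receptors that hold cells to the extracellular matrix. The 10 genes described here, Itga1, Itga2, Itga3, Itga5, Itga6, Itgav, Itgb1, Itgb3, Itgb4 and Itgb6, each encode an integrin subunit. These genes were chosen by name, with earlier results of these data known. They are 10 of the 20314 genes in the deposited table and 10 of its 26 integrin subunit genes; the other 16 serve as a comparison list.

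RNA was sequenced from mammary tumour cell lines of MMTV-PyMT mice on the FVB/N background, in which the mouse mammary tumour virus promoter drives the polyoma middle T oncogene in the mammary epithelium. All lines share that transgene and carry 1 of 7 beta-catenin genotypes: fl/fl, D164A/fl, D164A/-, deltaC/fl, deltaC/-, dm/fl or dm/-, where deltaC stands for the ΔC of the labels. In the TGFb experiment, cells of each genotype were kept untreated or given TGFb at 2 ng/ml for 4 days. In the Wnt3a experiment, other cells of each genotype were kept untreated or given Wnt3a at 100 ng/ml for 3 days. This gives 28 conditions of 2 samples each, 56 samples in all, written, for example, as fl/fl -TGFb and fl/fl +TGFb. By the study's methods, the floxed allele of the lines marked with a dash was deleted in culture with an adenovirus that carries Cre. The labels do not give the number of lines behind a genotype, so genotype and cell line cannot be told apart, and the protocol text for the treatments names lines of another gene. Nor do the labels say whether the 2 samples of a condition are separate lines or separate cultures, so the p-values measure the spread between these samples only.

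Each integrin pairs an alpha with a beta subunit, and the pair decides the ligand: alpha3 beta1, alpha6 beta1 and alpha6 beta4 bind laminins, alpha1 beta1 and alpha2 beta1 bind collagens, alpha5 beta1 binds fibronectin, and the alpha v integrins bind fibronectin, vitronectin and the latent form of TGFb. In the mammary gland, integrins anchor the epithelium to the laminin of its basement membrane, with alpha6 beta4 in hemidesmosomes. TGFb can drive epithelial tumour cells through an epithelial-mesenchymal transition, during which cells commonly exchange laminin-binding for fibronectin-binding receptors, and beta-catenin serves both at cadherin junctions and in Wnt signalling.

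Levels are given in CPM, the authors' read counts per gene per M reads of an effective library size. The samples held 22.4 to 33.7 M reads (median 26.8), so 1 read stood for 0.0306 to 0.0486 CPM. A count of 0 allows up to 3 reads, 0.092 to 0.146 CPM. Such floors cover counting error only. Responses are differences of log2(CPM + 1) between treated and untreated cells of the same genotype, given with the standard error of limma's fit after ±, from 2 samples against 2. A gene is called where its Benjamini-Hochberg adjusted p over the 13754 genes tested is at most 0.05 and its log2 fold change is at least 1 in size. Adding 1 CPM makes the fold change of a gene at a few CPM or less smaller than the ratio of its levels. Where leaving out 1 of the libraries compared changed a call, the fold change fitted without it, or the range of such values, is given with its name; calls changed through the fit's spread, by libraries of other conditions, enter counts only. All 10 members had at least 1 CPM in at least 2 samples and were tested. Itga3, Itga5, Itga6, Itgav, Itgb1 and Itgb4 had at least 1 CPM in 56 of 56 samples, Itgb6 in 55, Itgb3 in 35, Itga2 in 32 and Itga1 in 25.

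By their labels the samples are breast cancer cells from mammary tumours, and the markers were read against that. The 8 epithelial markers summed to 1218 to 8596 CPM per sample (median 2826), with Krt18 the most abundant at a mean of 975 CPM, and Krt19 reached 1 CPM in 8 samples only, all fl/fl. The 6 basal or myoepithelial markers summed to 8.65 to 3588 CPM, with Krt14 the most abundant, and Myh11 never reached 1 CPM. The leukocyte markers Ptprc, Cd52, Adgre1 and Cd3e stayed at or under 0.208 CPM, and the sum of the 6 leukocyte markers used here, 1.20 to 79.8 CPM, was mostly Cd68. Of the 5 endothelial markers, Kdr, Tek and Emcn stayed at or under 0.297 CPM, and the sum of 0.0395 to 35.2 CPM was highest in dm/fl +TGFb, where it was almost all Cdh5. The 7 fibroblast markers summed to 5.58 to 745 CPM, highest in deltaC/fl -TGFb, where Pdgfrb read 494 and 215 CPM, while Lum and Thy1 stayed at or under 0.116 CPM. The part of these markers in the integrin results was not tested.

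Of 7 genes used here as checks of the TGFb treatment, 4 were called higher in the response averaged over the 7 genotypes: Fn1 (2.80), Ccn2 (2.74), Vim (2.73) and Smad7 (1.32, log2 fold changes). Tgfbi (0.80), Skil (0.75) and Cdh1 (-0.55) passed the threshold on p but not that on size. The median of the 7 was 1.32, against -0.02 over all genes tested. Of the 8 epithelial markers, limma called 0 in either direction in that mean response (median -0.43), with 4 called lower in deltaC/fl and 1 in fl/fl.

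Each library was compared with every other across 9513 genes whose mean was 10 CPM or more, each centred on its mean over all libraries. In the TGFb experiment, all 28 libraries were nearest to a library of their own genotype. In the Wnt3a experiment, 3 were not: dm/fl -Wnt3a replicate 1 was nearest to dm/- +Wnt3a replicate 2 (r 0.63 against 0.35 with its own genotype), fl/fl +Wnt3a replicate 1 was nearest to the same library (r 0.58 against 0.50 with its own genotype), and D164A/fl -Wnt3a replicate 2 was nearest to D164A/- -Wnt3a replicate 2 (r 0.80 against 0.71 with its own genotype). These 3 are the libraries said below to stand apart. Their log2 levels rose with the GC content of the transcripts by 2.02, 0.92 and 0.68 per 10 points of GC, in that order. Other libraries of the Wnt3a experiment had slopes as steep: 1.40 in dm/- +Wnt3a replicate 2, 0.92 in deltaC/- +Wnt3a replicate 2 and 0.74 in deltaC/fl -Wnt3a replicate 2. In the other direction, the lowest slope there was -0.89, in fl/fl -Wnt3a replicate 2. The slopes in the TGFb experiment lay between -0.70 and 0.70. The SD of the log2 difference between the 2 samples of a condition ranged from 0.24 in deltaC/- -TGFb to 1.68 in dm/fl -Wnt3a, with a median of 0.52.

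Levels of different genes can be compared only per length, so CPM was divided by the kb of exon of each gene. Over the 14 untreated samples of the TGFb experiment, the median CPM per kb was 212 for Itgb1, 172 for Itga3, 78.5 for Itgb4, 38.2 for Itga6, 35.0 for Itgav, 14.7 for Itga5, 0.941 for Itgb6, 0.408 for Itga2, 0.321 for Itgb3 and 0.100 for Itga1. Thus the beta1 subunit, shared by most of the pairs, and the laminin-binding subunits alpha3, beta4 and alpha6 led, and the collagen-binding subunits alpha1 and alpha2 and the beta3 subunit were lowest. Over the 14 TGFb-treated samples it was 430.4 for Itgb1, 174 for Itga3, 137 for Itga5, 84.2 for Itgb4, 49.9 for Itgav, 23.2 for Itga6, 10.2 for Itgb3, 1.89 for Itga2, 1.36 for Itgb6 and 0.101 for Itga1. Itga5 had rank 6 in the untreated order and rank 3 in the treated order, and Itgb3 had ranks 9 and 7. In both orders, the ranges of samples of every 2 neighbours overlapped, since genotypes differed widely: Itga3, for example, ranged from 15.9 to 252 CPM per kb in the untreated samples and Itgb3 from 0 to 24.9. In the Wnt3a experiment, the first 8 of the untreated order were the same genes in the same order.

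**Figure D1:**
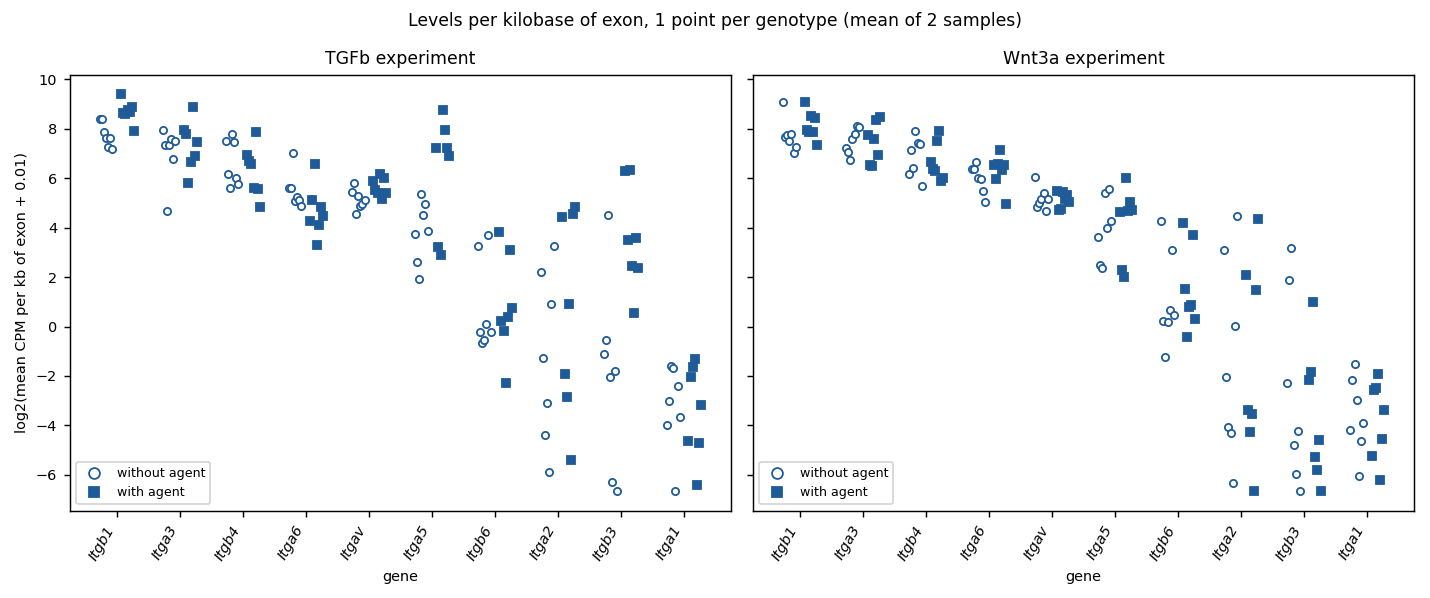
Level of each integrin subunit gene per kb of exon in the TGFb experiment (left) and the Wnt3a experiment (right), as log2 of the mean CPM per kb plus 0.01, with 1 point for each genotype and separate points for untreated and treated cells. In the TGFb experiment, the medians over untreated samples run from 212 CPM per kb for Itgb1 to 0.100 for Itga1.

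The members share little by position. Itga1 and Itga2 are neighbours on chromosome 13, 25978 bases apart. Itga3, Itgb3 and Itgb4 lie on chromosome 11 and Itgb6, Itga6 and Itgav on chromosome 2, each at least 9531155 bases from the next. Itgb1 and Itga5 are alone on chromosomes 8 and 15 (build GRCm38.p6). RefSeq promoter windows, the stretch just before a transcript's start, were at hand for 7 of the 10 members, 9 windows in all. Itga6, Itgb3 and Itgb4 are named only. Both strands were searched for 7 short words: the Smad-binding words CAGAC (in 42.2% of all 32817 windows) and GTCTAGAC (0.168%), the AP-1 word TGANTCA (6.75%), the E-box word CACCTG (17.2%), the Tcf/Lef words CTTTGA (13.8%) and CTTTGT (16.5%), and the GC-box word CCCGCCC (23.4%). CAGAC or its reverse complement was in 5 of the 9 windows; GTCTAGAC and TGANTCA were in 0 of them. The windows of Itga2, Itga5 and Itgb1 are printed where these genes are described, as the 3 members with a window whose averaged response to TGFb was largest; a match is a description of letters, not a binding site.

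The TGFb comparison asks how these tumour cells change on TGFb, and whether beta-catenin genotype alters that change. For fl/fl the result was 3 of 10 called higher against 3.31% of all genes tested (Itga2, Itga5 and Itgb3), and 1 of 10 lower (Itga6) against 2.94%. D164A/fl had 1 of 10 called higher against 2.50% of all genes tested (Itgb3), and D164A/- had 1 of 10 called higher against 2.70% of all genes tested (Itgb3). For deltaC/fl it was 3 of 10 called higher against 3.24% of all genes tested (Itga2, Itga5 and Itgb3), and 2 of 10 lower (Itga6 and Itgb4) against 4.49%. For deltaC/- it was 2 of 10 called higher against 2.86% of all genes tested (Itga5 and Itgb3). In dm/fl there were 4 of 10 called higher against 3.45% of all genes tested (Itga2, Itga5, Itgav and Itgb3), and 1 of 10 lower (Itga1) against 6.88%. Finally, dm/- had 2 of 10 called higher against 3.68% of all genes tested (Itga5 and Itgb3). limma called 0 members lower in D164A/fl, D164A/-, deltaC/- and dm/-, where it called 0.880%, 1.36%, 3.69% and 2.44% of all genes lower. At an unadjusted p under 0.05 the counts were 0, 0, 1 (Itga6) and 0, and edgeR called 0 in each. Summed over the 7 genotypes, 20 of 70 member responses were called (28.6%), 16 higher and 4 lower, against 6.35% of all gene responses. With each TGFb library left out in turn the lower count ran from 1 (without deltaC/fl -TGFb replicate 2) to 5 (without fl/fl -TGFb replicate 1), and the higher count was 14 or 15. Itga2 and Itgb3, which give 10 of the 16 higher calls, are also in a list that the study itself picked from these samples. In bulk RNA, fewer cells of a kind and less RNA per cell cannot be told apart.

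As a group, the 10 members had median responses of 0.55 in fl/fl, 0.41 in D164A/fl, 0.77 in D164A/-, 0.59 in deltaC/fl, 0.30 in deltaC/-, 0.59 in dm/fl and 0.48 in dm/-. The median over all genes tested lay between -0.03 and 0.03 in each of these genotypes. In size, regardless of direction, the members' median response was 0.84 in fl/fl, 0.47 in D164A/fl, 0.77 in D164A/-, 1.45 in deltaC/fl, 0.73 in deltaC/-, 1.09 in dm/fl and 0.79 in dm/-, against 0.22, 0.29, 0.24, 0.30, 0.32, 0.32 and 0.30 over all genes, in the same order. In the response averaged over the 7 genotypes, limma called 3 of 10 higher against 2.68% of all genes, namely Itgb3 at 4.16 ± 0.17 (adjusted p 1.2e-18), Itga5 at 2.39 ± 0.19 (adjusted p 8.8e-12) and Itga2 at 2.84-fold of CPM + 1 (adjusted p 3.1e-07). It called 0 of 10 lower against 2.20%; 1 member, Itga6, was lower at an unadjusted p under 0.05, and edgeR also called 0 lower. These 3 calls stood without any 1 of the 28 TGFb libraries, and the other 7 members (Itga1, Itga3, Itga6, Itgav, Itgb1, Itgb4 and Itgb6) were not called with all of them. In a fit without 1 library, the lone sample was assumed to vary like the other groups.

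**Figure D2:**
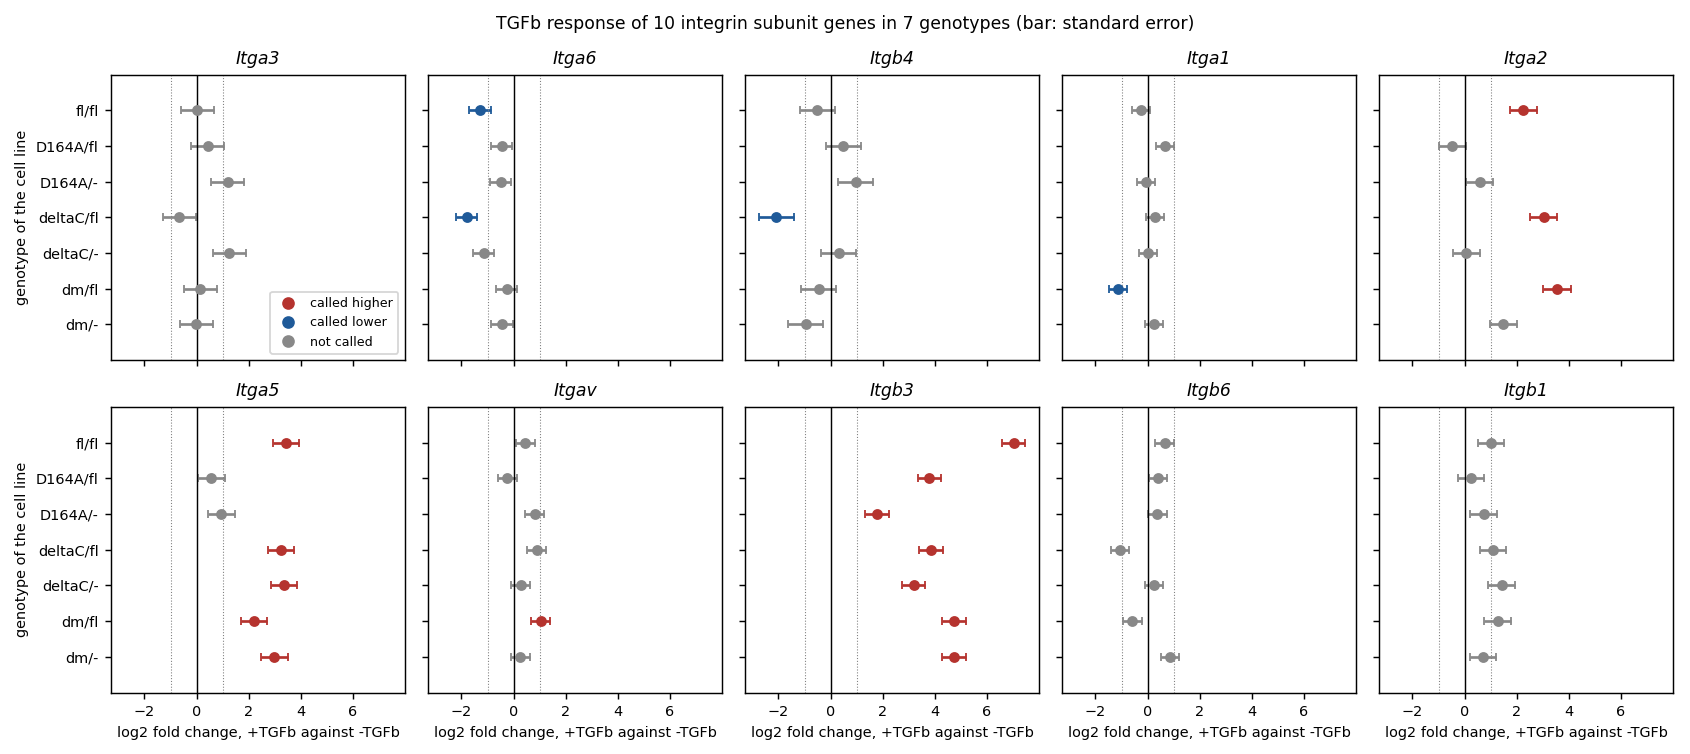
Response of each integrin subunit gene to TGFb in each genotype, as the log2 fold change of CPM + 1 with its standard error from limma, from 2 treated against 2 untreated samples; red marks responses called higher, blue those called lower and grey those not called, and dotted lines mark -1 and 1. Itgb3 is above 0 in all 7 genotypes, from 1.78 to 7.03, and Itga6 is below 0 in all 7.

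Itga3 (Entrez ID 16400, chromosome 11, 95044475 to 95076844, - strand) encodes alpha3, which pairs with beta1 as a laminin receptor of basement membranes. Its level ranged from 83.3 to 1325 CPM over the 14 untreated samples (median 902) and from 232 to 3008 CPM over the 14 treated samples (median 912). D164A/- samples were lowest in both sets, fl/fl samples were highest untreated, and deltaC/- samples were highest with TGFb. Responses ran from -0.66 in deltaC/fl to 1.26 in deltaC/-, limma called 0 of 7, 0 of 7 reached an unadjusted p under 0.05, and edgeR called 0. Its averaged response was 0.34 ± 0.24 (adjusted p 0.329).

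Itga6 (Entrez ID 16403, chromosome 2, 71786886 to 71858427, + strand) encodes alpha6, the partner of beta4 in hemidesmosomes and of beta1 elsewhere. Untreated cells read 155 and 270.0 CPM in fl/fl, 211 and 209 in D164A/fl, 583 and 536 in D164A/-, 118 and 172 in deltaC/fl, 168 and 165 in deltaC/-, 146 and 154 in dm/fl, and 121 and 137 in dm/-. With TGFb they read 81.1 and 84.8 CPM in fl/fl, 150.1 and 156 in D164A/fl, 534 and 291 in D164A/-, 29.2 and 55.8 in deltaC/fl, 80.3 and 69.6 in deltaC/-, 118 and 130.2 in dm/fl, and 121 and 72.3 in dm/-. Both treated samples were below both untreated samples in 6 genotypes, and in dm/- the samples overlapped; untreated D164A/- cells were highest by a wide margin. Itga6 was called lower in deltaC/fl, at -1.80 ± 0.41 (adjusted p 0.00274), and in fl/fl, at -1.29 ± 0.41 (adjusted p 0.0496). The fl/fl call was lost with -1.26 without fl/fl +TGFb replicate 1, -0.89 without fl/fl -TGFb replicate 2 and -1.32 without fl/fl +TGFb replicate 2, and that in deltaC/fl with -1.34 without deltaC/fl +TGFb replicate 1 and -1.53 without deltaC/fl -TGFb replicate 2. Responses in the other 5 genotypes ran from -1.15 in deltaC/- to -0.27 in dm/fl, and the averaged response, -0.84 ± 0.16 (adjusted p 6.7e-05), passed the threshold on p but not that on size.

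Itgb4 (Entrez ID 192897, chromosome 11, 115974725 to 116008412, + strand) encodes beta4, whose long cytoplasmic tail ties hemidesmosomes to keratin. Untreated, its level was 1351 and 854 CPM in fl/fl, 408 and 487 in D164A/fl, 264 and 331 in D164A/-, 934 and 1761 in deltaC/fl, 1104 and 1076 in deltaC/-, 318 and 483 in dm/fl, and 393 and 269.7 in dm/-. After TGFb it was 751 and 753 CPM in fl/fl, 519 and 755 in D164A/fl, 649 and 521 in D164A/-, 327 and 275 in deltaC/fl, 962 and 1916 in deltaC/-, 246 and 336 in dm/fl, and 227 and 124 in dm/-. Both treated samples were lower than both untreated samples in fl/fl, deltaC/fl and dm/-, and higher in D164A/fl and D164A/-; in deltaC/- and dm/fl they overlapped. The only call was in deltaC/fl, where Itgb4 was lower at -2.09 ± 0.67 (adjusted p 0.0408); it was not called with any 1 of the 4 libraries left out (-2.55 without deltaC/fl -TGFb replicate 1, -2.22 without deltaC/fl +TGFb replicate 1, -1.64 without deltaC/fl -TGFb replicate 2 and -1.97 without deltaC/fl +TGFb replicate 2). Elsewhere the response ran from -0.95 in dm/- to 0.97 in D164A/-, and the test of a difference among the 7 genotypes gave an adjusted p of 0.202.

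Itga1 (Entrez ID 109700, chromosome 13, 114958079 to 115101964, - strand) encodes alpha1, a collagen receptor with beta1, and was the lowest member per kb in the TGFb experiment. Its highest sample in the TGFb experiment read 5.25 CPM, in deltaC/fl +TGFb, and deltaC/- held 0 and 0 reads untreated and 1 and 0 reads with TGFb, too few for a fold. In dm/fl it read 2.70 and 1.24 CPM untreated and 0.249 and 0.362 CPM with TGFb. The treated samples of dm/fl were both below the untreated samples. This was the only call, at -1.14 ± 0.35 (adjusted p 0.0217), lost with -0.78 without dm/fl -TGFb replicate 1, -1.08 without dm/fl +TGFb replicate 1 and -1.21 without dm/fl +TGFb replicate 2; the responses of the other 6 genotypes lay between -0.25 and 0.68.

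Itga2 (Entrez ID 16398, chromosome 13, 114833081 to 114932100, - strand) encodes alpha2, the subunit of the main collagen receptor of epithelial cells. Its promoter window from RefSeq, chr13:114932101-114932350 on the - strand of GRCm38.p6, was 60.8% GC and held CAGAC or its reverse complement GTCTG at 3 places, in capitals here, and none of the other 6 words.
Itga2: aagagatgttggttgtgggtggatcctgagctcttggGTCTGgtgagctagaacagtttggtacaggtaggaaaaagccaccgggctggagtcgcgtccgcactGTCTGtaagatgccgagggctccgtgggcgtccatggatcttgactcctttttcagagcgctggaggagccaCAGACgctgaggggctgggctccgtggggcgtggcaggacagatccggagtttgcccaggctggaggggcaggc

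The untreated Itga2 level was 39.9 and 24.8 CPM in fl/fl, 2.58 and 3.22 in D164A/fl, 0.386 and 0.152 in D164A/-, 0.840 and 0.667 in deltaC/fl, 0.0388 and 0.0629 in deltaC/-, 13.1 and 13.4 in dm/fl, and 56.8 and 79.9 in dm/-. In TGFb-treated cells it was 162 and 148 CPM in fl/fl, 2.00 and 1.59 in D164A/fl, 1.06 and 0.770 in D164A/-, 12.5 and 14.4 in deltaC/fl, 0.116 and 0.0790 in deltaC/-, and 133 and 274 in dm/-, with a mean of 166 in dm/fl (SD 2.92). Genotypes spanned the whole range: deltaC/- was near 0 with or without TGFb, D164A/- and D164A/fl stayed low, and fl/fl, dm/fl and dm/- were high. In the untreated order, deltaC/-, D164A/-, deltaC/fl, D164A/fl, dm/fl, fl/fl and dm/- from lowest to highest, the samples of neighbours did not overlap. Treated samples were above untreated samples in every genotype but D164A/fl, where both were below. The response was called higher in dm/fl at 3.55 ± 0.52 (adjusted p 5.0e-06), deltaC/fl at 3.04 ± 0.52 (adjusted p 9.0e-05) and fl/fl at 2.26 ± 0.52 (adjusted p 0.00349); the fl/fl response was 1.93 and not called without fl/fl -TGFb replicate 2. For dm/- it was 1.49 ± 0.52 (adjusted p 0.0809), for D164A/- 0.59 ± 0.52 (adjusted p 0.900) and for D164A/fl -0.48 ± 0.52 (adjusted p 0.831). In deltaC/-, 5 reads with TGFb stood against 3 untreated, a ratio of 1.87 with a 95% counting interval of 0.364 to 12.1.

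**Figure D3:**
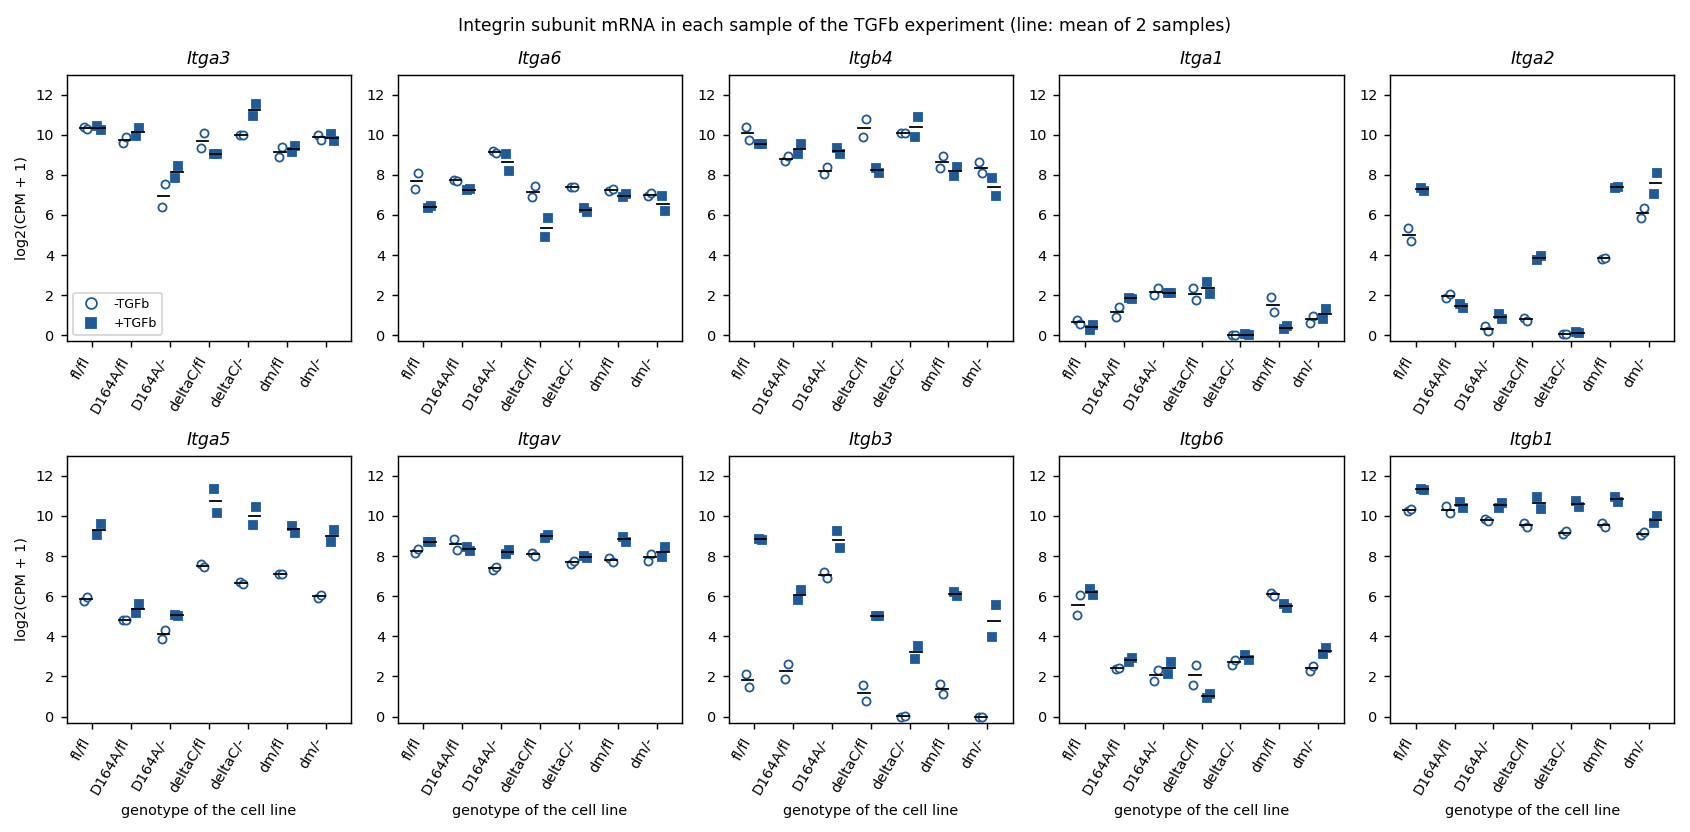
Level of the 10 integrin subunit genes in each sample of the TGFb experiment, as log2(CPM + 1), by genotype; open circles are untreated samples, filled squares TGFb-treated samples and lines the mean of the 2 samples. The filled squares of Itgb3 and Itga5 lie above the open circles in all 7 genotypes, and Itga2 runs from near 0 in deltaC/- to 274 CPM in dm/- +TGFb.

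Itga5 (Entrez ID 16402, chromosome 15, 103344286 to 103366791, - strand) encodes alpha5, which with beta1 forms the classical fibronectin receptor. Its RefSeq promoter window, chr15:103366792-103367041 on the - strand of GRCm38.p6, was 55.6% GC and held 1 of the 7 words, CCCGCCC or its reverse complement GGGCGGG, once and in capitals.
Itga5: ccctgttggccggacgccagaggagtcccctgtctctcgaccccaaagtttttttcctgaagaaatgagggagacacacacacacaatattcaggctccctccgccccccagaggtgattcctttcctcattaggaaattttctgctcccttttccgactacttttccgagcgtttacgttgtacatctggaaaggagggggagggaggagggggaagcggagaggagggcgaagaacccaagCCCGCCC

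Without TGFb, Itga5 read 53.8 and 62.1 CPM in fl/fl, 27.2 and 26.9 in D164A/fl, 13.5 and 19.2 in D164A/-, 191 and 173 in deltaC/fl, 102 and 96.6 in deltaC/-, 138 and 137 in dm/fl, and 59.9 and 66.5 in dm/-. With it, Itga5 read 526 and 777 CPM in fl/fl, 34.8 and 47.1 in D164A/fl, 32.2 and 31.8 in D164A/-, 2618 and 1134 in deltaC/fl, 753 and 1397 in deltaC/-, 726 and 565 in dm/fl, and 408 and 637 in dm/-. Every treated sample exceeded every untreated sample of its genotype, and the 4 samples of D164A/fl and D164A/- with TGFb were far below the treated samples of the other 5 genotypes, whose ranges overlapped from dm/- up to deltaC/fl. The untreated order rose from D164A/- through D164A/fl, fl/fl, dm/-, deltaC/- and dm/fl to deltaC/fl, and only fl/fl and dm/- overlapped among neighbours. Itga5 was called higher in 5 genotypes: fl/fl at 3.44 ± 0.51 (adjusted p 8.1e-06), deltaC/- at 3.36 ± 0.51 (adjusted p 1.9e-05), deltaC/fl at 3.24 ± 0.51 (adjusted p 2.2e-05), dm/- at 2.99 ± 0.51 (adjusted p 9.4e-05) and dm/fl at 2.21 ± 0.51 (adjusted p 0.00194). Each of these 5 calls stood without any 1 of the 4 libraries of its genotype. In D164A/- and D164A/fl the responses were 0.95 ± 0.51 (adjusted p 0.502) and 0.57 ± 0.51 (adjusted p 0.752), not called.

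Itgav (Entrez ID 16410, chromosome 2, 83722303 to 83806917, + strand) encodes alpha v, which pairs with beta1, beta3, beta5, beta6 or beta8 and binds ligands through the sequence RGD. In the TGFb experiment its level was 159.8 to 459.8 CPM untreated (median 247) and 241 to 536 CPM treated (median 352). Treated samples were above untreated samples in fl/fl, D164A/-, deltaC/fl, deltaC/- and dm/fl, and overlapped them in D164A/fl and dm/-. The single call was dm/fl, at 1.04 ± 0.36 (adjusted p 0.0499), which edgeR did not make and which was lost with each of its 4 libraries left out (1.14 without dm/fl -TGFb replicate 1, 0.90 without dm/fl +TGFb replicate 1, 0.95 without dm/fl -TGFb replicate 2 and 1.18 without dm/fl +TGFb replicate 2). The averaged response, 0.50 ± 0.14 (adjusted p 0.00475), passed the threshold on p but not that on size.

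Itgb3 (Entrez ID 16416, chromosome 11, 104608000 to 104670476, + strand) encodes beta3, the partner of alpha v in the vitronectin receptor. Itgb3 levels in untreated cells were 3.42 and 1.76 CPM in fl/fl, 2.69 and 5.21 in D164A/fl, 144 and 119 in D164A/-, 1.96 and 0.698 in deltaC/fl, 0 and 0.0315 in deltaC/-, 2.05 and 1.18 in dm/fl, and 0 and 0 in dm/-. In TGFb-treated cells they were 462 and 452 CPM in fl/fl, 55.5 and 77.0 in D164A/fl, 603 and 338 in D164A/-, 31.4 and 31.2 in deltaC/fl, 6.37 and 10.6 in deltaC/-, 73.9 and 62.3 in dm/fl, and 14.4 and 45.8 in dm/-. Untreated cells had little or no Itgb3 in 6 genotypes. Untreated D164A/- cells were already above the treated cells of 5 other genotypes. Treated samples were above untreated samples everywhere. Untreated samples overlapped between dm/- and deltaC/-, and along the order deltaC/fl, dm/fl, fl/fl and D164A/fl. With TGFb, deltaC/- was lowest and fl/fl and D164A/- were highest and overlapped. All 7 responses were called higher: 7.03 ± 0.45 (adjusted p 2.6e-13) in fl/fl, 4.74 ± 0.45 (adjusted p 3.9e-09) in dm/-, 4.74 ± 0.45 (adjusted p 1.5e-09) in dm/fl, 3.85 ± 0.45 (adjusted p 2.2e-07) in deltaC/fl, 3.79 ± 0.45 (adjusted p 1.2e-06) in D164A/fl, 3.19 ± 0.45 (adjusted p 7.9e-06) in deltaC/- and 1.78 ± 0.45 (adjusted p 0.0128) in D164A/-. The last was lost with 1.91 without D164A/- -TGFb replicate 1, 1.36 without D164A/- +TGFb replicate 1 and 1.64 without D164A/- -TGFb replicate 2, and edgeR did not call it. Counted in reads, dm/- held 1764 with TGFb and 0 without, at least 304-fold higher against a floor of 3 reads in each untreated sample. In deltaC/- they were 433 against 1, a ratio of 486 with a 95% counting interval of 86.8 to 19252. The fitted fold changes of these 2 genotypes depend on the 1 CPM added and are not bounds.

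Itgb6 (Entrez ID 16420, chromosome 2, 60598292 to 60722603, - strand) encodes beta6, an epithelial subunit that with alpha v binds latent TGFb. Its untreated level was 32.6 and 64.6 CPM in fl/fl, 4.25 and 4.44 in D164A/fl, 2.43 and 4.04 in D164A/-, 1.96 and 4.92 in deltaC/fl, 5.01 and 6.04 in deltaC/-, 71.0 and 63.0 in dm/fl, and 3.85 and 4.81 in dm/-. With TGFb it was 80.6 and 66.2 CPM in fl/fl, 5.53 and 6.60 in D164A/fl, 3.39 and 5.53 in D164A/-, 0.875 and 1.15 in deltaC/fl, 7.49 and 6.08 in deltaC/-, 47.9 and 41.1 in dm/fl, and 7.80 and 9.62 in dm/-. Only fl/fl and dm/fl were high, and their untreated samples overlapped each other. The other 5 genotypes were low with or without TGFb. limma called 0 of 7 responses, 2 reached an unadjusted p under 0.05, deltaC/fl at -1.06 ± 0.36 (adjusted p 0.0575) and dm/- at 0.86 ± 0.36 (adjusted p 0.164), and edgeR called 1, deltaC/fl. In deltaC/fl it was called, at -1.56 without deltaC/fl -TGFb replicate 1.

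Itgb1 (Entrez ID 16412, chromosome 8, 128685654 to 128733579, + strand) encodes beta1, the common partner of alpha1, alpha2, alpha3, alpha5 and alpha6. Its RefSeq promoter window, chr8:128685404-128685653 on the + strand of GRCm38.p6, was 68% GC and held CAGAC or GTCTG 3 times and CTTTGT once, in capitals; the CTTTGT overlaps a GTCTG.
Itgb1: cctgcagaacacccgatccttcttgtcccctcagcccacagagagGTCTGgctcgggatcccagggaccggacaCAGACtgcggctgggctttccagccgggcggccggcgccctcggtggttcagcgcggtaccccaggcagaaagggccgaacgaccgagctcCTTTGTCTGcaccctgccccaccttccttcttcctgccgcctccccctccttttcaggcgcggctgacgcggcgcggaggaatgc

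Itgb1 read 1233 and 1296 CPM in fl/fl, 1439 and 1130.4 in D164A/fl, 923 and 864 in D164A/-, 813 and 699.5 in deltaC/fl, 542 and 610.1 in deltaC/-, 803 and 696 in dm/fl, and 521 and 588 in dm/- without TGFb. The treated cells read 2626 and 2481 CPM in fl/fl, 1672 and 1354 in D164A/fl, 1358 and 1611 in D164A/-, 1966 and 1319 in deltaC/fl, 1720.2 and 1388 in deltaC/-, 1949 and 1673 in dm/fl, and 814 and 1003 in dm/-. Treated samples were above untreated samples in every genotype except D164A/fl, where they overlapped. limma called 0 of 7 responses at the thresholds; 3 reached an unadjusted p under 0.05, deltaC/- at 1.42 ± 0.51 (adjusted p 0.0761), dm/fl at 1.27 ± 0.51 (adjusted p 0.109) and deltaC/fl at 1.09 ± 0.51 (adjusted p 0.221), and edgeR called 0. Fitted on the 28 samples of the TGFb experiment alone, 4 were called: 1.42 in deltaC/-, 1.27 in dm/fl, 1.09 in deltaC/fl and 1.01 in fl/fl. The averaged response was 0.92 ± 0.19 (adjusted p 3.0e-04), past the threshold on p but not that on size.

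Whether a response differed between genotypes was tested on the difference itself. The test of any difference among the 7 genotypes called 18.3% of all genes and 4 of 10 members: Itgb3 (adjusted p 1.1e-05), Itga2 (2.9e-04), Itga5 (0.00459) and Itgb6 (0.0383). The Itgb6 call was lost, with adjusted p of 0.0622 without fl/fl +TGFb replicate 1, 0.0542 without D164A/fl -TGFb replicate 1, 0.127 without deltaC/fl +TGFb replicate 1, 0.0510 without deltaC/- -TGFb replicate 1, 0.0765 without dm/fl -TGFb replicate 1, 0.0522 without dm/fl +TGFb replicate 1, 0.0762 without dm/- -TGFb replicate 1, 0.0538 without D164A/fl +TGFb replicate 2, 0.195 without deltaC/fl -TGFb replicate 2, 0.0765 without deltaC/fl +TGFb replicate 2, 0.0549 without dm/fl -TGFb replicate 2, 0.0763 without dm/fl +TGFb replicate 2, 0.0522 without dm/- -TGFb replicate 2 and 0.0744 without dm/- +TGFb replicate 2; the other 3 stood without any 1 of the 28 TGFb libraries. Itga1, Itga3, Itga6, Itgav, Itgb1 and Itgb4 were not called with all libraries. With the GC trend of each library removed, 7 members and 3492 genes were called, against 2515 genes with it. Without the 3 libraries that stand apart there were 6 members and 3269 genes. On the 28 samples of the TGFb experiment alone there were 10 members and 5602 genes, and with samples blocked by replicate number 7 members and 4775 genes. The sizes in question are the responses already given, such as 7.03 for Itgb3 in fl/fl against 1.78 in D164A/-.

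Against fl/fl, whose 4 samples all 6 differences share, the members called were 3 of 10 for D164A/fl (3.81% of all genes), 2 of 10 for D164A/- (4.28% of all genes), 1 of 10 for deltaC/fl (2.69% of all genes), 1 of 10 for deltaC/- (2.01% of all genes), 1 of 10 for dm/fl (4.04% of all genes) and 1 of 10 for dm/- (2.78% of all genes). All 9 of these 60 were lower log2 fold changes than in fl/fl, 15.00% against 3.27% of all gene tests; without fl/fl +TGFb replicate 2 there were 4, with 1889 gene calls against 2697. Itgb3 gave 6 of the 9: -3.24 ± 0.64 (adjusted p 0.00147) for D164A/fl, -5.26 ± 0.64 (adjusted p 9.5e-07) for D164A/-, -3.18 ± 0.64 (adjusted p 0.00244) for deltaC/fl, -3.85 ± 0.64 (adjusted p 3.2e-04) for deltaC/-, -2.30 ± 0.64 (adjusted p 0.0301) for dm/fl and -2.29 ± 0.64 (adjusted p 0.0421) for dm/-. For dm/fl it was lost with -2.28 without fl/fl +TGFb replicate 1, -2.05 without dm/fl -TGFb replicate 1, -2.42 without dm/fl +TGFb replicate 1, -1.95 without fl/fl -TGFb replicate 2, -2.31 without fl/fl +TGFb replicate 2 and -2.17 without dm/fl +TGFb replicate 2. For dm/- it was lost with -2.27 without fl/fl +TGFb replicate 1, -2.29 without dm/- -TGFb replicate 1, -1.49 without dm/- +TGFb replicate 1, -1.95 without fl/fl -TGFb replicate 2, -2.31 without fl/fl +TGFb replicate 2 and -2.29 without dm/- -TGFb replicate 2. Where untreated cells had no or 1 read, the sign depended on the scale: dm/- minus fl/fl was 0.53 with 0.1 CPM added in place of 1 and 5.21 by edgeR, and deltaC/- minus fl/fl was 1.14 by edgeR, while the latter was -1.30, not called, with 0.1 CPM added. No difference from fl/fl was called for Itga1, Itga3, Itga6, Itgav, Itgb1, Itgb4 or Itgb6 with all libraries. By edgeR, 3 of the 60 were called, Itgb3 and Itga5 for D164A/fl and Itgb3 for D164A/-.

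Itga5 responded less than in fl/fl in D164A/fl, with a difference of -2.88 ± 0.72 (adjusted p 0.0132), and in D164A/-, with -2.50 ± 0.72 (adjusted p 0.0347). The first was lost with -2.78 without fl/fl -TGFb replicate 1, -2.87 without D164A/fl -TGFb replicate 1, -2.66 without D164A/fl +TGFb replicate 1 and -2.60 without fl/fl +TGFb replicate 2. The second was lost with -2.40 without fl/fl -TGFb replicate 1, -2.74 without D164A/- -TGFb replicate 1, -2.51 without D164A/- +TGFb replicate 1, -2.60 without fl/fl -TGFb replicate 2, -2.22 without fl/fl +TGFb replicate 2, -2.26 without D164A/- -TGFb replicate 2 and -2.49 without D164A/- +TGFb replicate 2. Itga2 responded less in D164A/fl, with a difference of -2.74 ± 0.74 (adjusted p 0.0258). It was lost with -2.68 without fl/fl +TGFb replicate 1, -2.86 without D164A/fl -TGFb replicate 1, -2.85 without D164A/fl +TGFb replicate 1, -2.41 without fl/fl -TGFb replicate 2, -2.80 without fl/fl +TGFb replicate 2, -2.62 without D164A/fl -TGFb replicate 2 and -2.63 without D164A/fl +TGFb replicate 2. The Itgb6 difference of deltaC/fl was not called with all libraries and was called with -2.22 without deltaC/fl -TGFb replicate 1 and -2.20 without fl/fl -TGFb replicate 2.

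Deleted and floxed lines of the same mutant allele share no samples; here limma called 0 of 10 for D164A/- minus D164A/fl (1.35% of all genes), 1 of 10 for deltaC/- minus deltaC/fl (3.13%) and 0 of 10 for dm/- minus dm/fl (7.31%). At an unadjusted p under 0.05 the counts were 2, 4 and 3, and edgeR called 0, 0 and 1, the last being Itgb3. Among the 13754 genes tested, 964, 1744 and 2530 were under that unadjusted p, in the same order. The total of 1 in 30, with 1620 gene calls, depended on the fit. It was 4 with 2156 gene calls without the 3 libraries that stand apart. After the GC trend of each library was removed it was 5 with 2085. On the 28 samples of the TGFb experiment alone it was 7 with 3609. With samples blocked by replicate number it was 8 with 3510, though the labels do not say what the numbers share. The limma call was Itga2, whose response was -2.98 ± 0.74 (adjusted p 0.0170) in deltaC/- relative to deltaC/fl, lost without any 1 of 7 libraries (deltaC/fl -TGFb replicates 1 and 2, deltaC/fl +TGFb replicate 2 and all 4 of deltaC/-), with values from -3.05 to -2.88. With all libraries it called none of Itga1, Itga3, Itga5, Itga6, Itgav, Itgb1, Itgb3, Itgb4 and Itgb6. Without 1 library, Itga1 was called for dm/- minus dm/fl at 1.76 without dm/fl -TGFb replicate 2, and Itga2 at -2.59 without dm/- +TGFb replicate 2.

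Untreated cells of each mutant genotype were compared with untreated fl/fl cells, once in the TGFb and once in the Wnt3a experiment, from separate samples; within an experiment the 6 comparisons share the fl/fl samples. In the -TGFb cells the members called were 2 of 10 in D164A/fl (14.7% of all genes), 8 of 10 in D164A/- (19.4% of all genes), 4 of 10 in deltaC/fl (16.03% of all genes), 3 of 10 in deltaC/- (22.04% of all genes), 0 of 10 in dm/fl (16.03% of all genes) and 2 of 10 in dm/- (13.96% of all genes). limma's 0 in dm/fl stands against 4 members at an unadjusted p under 0.05 (Itga1, Itga2, Itga5 and Itgb4) and 0 by edgeR. In that comparison 4363 of the 13754 genes tested were also under an unadjusted p of 0.05. Over the 6 comparisons limma called 19 of 60 members (31.7%), 5 higher and 14 lower, against 17.03% of all gene tests. In the -Wnt3a cells they were 5 of 10 in D164A/fl (19.7% of all genes), 5 of 10 in D164A/- (17.1% of all genes), 4 of 10 in deltaC/fl (13.8% of all genes), 2 of 10 in deltaC/- (15.4% of all genes), 6 of 10 in dm/fl (32.7% of all genes) and 3 of 10 in dm/- (18.3% of all genes), 25 of 60 (41.7%), 5 higher and 20 lower, against 19.5%. Without the 3 libraries that stand apart, 2 of 10 were called in dm/fl (Itga2 and Itgb1) and 4 of 10 in D164A/fl (Itga1, Itga2, Itgb3 and Itgb6), and the count over all 6 was again 25, with 14368 gene calls against 16101. Fitted on the 28 samples of each experiment alone, the counts were 29 of 60 in the -TGFb cells, with 17625 gene calls against 14053, and 16 of 60 in the -Wnt3a cells, with 10058.

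Itgb6 was lower than in fl/fl in 5 of the 6 genotypes in the -TGFb cells, from -3.50 ± 0.36 (adjusted p 1.7e-09) in D164A/- to -2.85 ± 0.36 (adjusted p 1.7e-07) in deltaC/-; dm/fl was not called. In the -Wnt3a cells its level was 104 and 94.7 CPM in fl/fl, 6.28 and 5.59 in D164A/fl, 2.33 and 1.90 in D164A/-, 7.85 and 3.92 in deltaC/fl, 9.57 and 6.69 in deltaC/-, 26.9 and 60.5 in dm/fl, and 6.54 and 7.79 in dm/-. There it was called lower in all 6, from -5.01 ± 0.36 (adjusted p 5.6e-13) in D164A/- to -1.27 ± 0.36 (adjusted p 0.00665) in dm/fl. The dm/fl value was -0.70 and not called without dm/fl -Wnt3a replicate 1, which stands apart. Itga2 was lower in 4 genotypes in the -TGFb cells, from -4.95 ± 0.52 (adjusted p 5.6e-09) in deltaC/- to -3.06 ± 0.52 (adjusted p 3.5e-05) in D164A/fl, and in 5 in the -Wnt3a cells, where it read 59.5 and 61.1 CPM in fl/fl, 2.80 and 0.505 in D164A/fl, 0.328 and 0.380 in D164A/-, 0.357 and 0.215 in deltaC/fl, 0 and 0.0347 in deltaC/-, 4.67 and 9.72 in dm/fl, and 189 and 127 in dm/-. In both experiments dm/- was the highest genotype for Itga2 and deltaC/- the lowest. In D164A/fl the -Wnt3a value was -4.68, or -4.01 without D164A/fl -Wnt3a replicate 2, and in dm/fl it was -2.97, or -2.52 without dm/fl -Wnt3a replicate 1; both were called either way.

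Itgb3 was higher in D164A/- in both experiments, at 5.24 ± 0.45 (adjusted p 3.4e-11) in the -TGFb and 4.54 ± 0.45 (adjusted p 1.1e-09) in the -Wnt3a cells. In the -Wnt3a cells D164A/fl was also higher, at 3.37 ± 0.45 (adjusted p 4.7e-07), or 3.11 without D164A/fl -Wnt3a replicate 2. Itgb3 was lower in the -TGFb cells of deltaC/- and dm/-, which held 1 and 0 reads; these calls were lost without fl/fl -TGFb replicate 1. Without that library the fitted values were -1.44 and -1.46. edgeR, but not limma, also called Itgb3 in the -Wnt3a cells of deltaC/fl, deltaC/-, dm/fl and dm/-, whose mean levels were below that of fl/fl. Itga1 was called higher in D164A/- in both experiments, at 1.52 ± 0.35 (adjusted p 9.3e-04) and 1.61 ± 0.35 (adjusted p 5.7e-04), and in deltaC/fl in the -TGFb cells, at 1.41 ± 0.35 (adjusted p 0.00252), lost with 1.11 without deltaC/fl -TGFb replicate 1. It was called in dm/fl with 1.23 without dm/fl -TGFb replicate 2, and in the -Wnt3a cells of D164A/fl with 1.73 without D164A/fl -Wnt3a replicate 2. The -Wnt3a value of Itga1 in dm/fl changed sign, to 1.13, once the GC trend of each library was removed.

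Itga5 was higher in deltaC/fl in both experiments, at 1.64 ± 0.51 (adjusted p 0.0172) and 1.65 ± 0.51 (adjusted p 0.0197), and lower in D164A/- in the -TGFb cells, at -1.78 ± 0.51 (adjusted p 0.00786). The deltaC/fl calls were lost with 1.53 without fl/fl -TGFb replicate 1, 1.56 without deltaC/fl -TGFb replicate 1, 1.74 without fl/fl -TGFb replicate 2 and 1.71 without deltaC/fl -TGFb replicate 2, and with 1.64 without fl/fl -Wnt3a replicate 1, 1.66 without fl/fl -Wnt3a replicate 2 and 1.05 without deltaC/fl -Wnt3a replicate 2. That of D164A/- was lost with -1.54 without D164A/- -TGFb replicate 1 and -1.68 without fl/fl -TGFb replicate 2. In the -Wnt3a cells dm/fl was higher, at 1.67 ± 0.51 (adjusted p 0.0104), lost with 1.66 without fl/fl -Wnt3a replicate 1, 0.76 without dm/fl -Wnt3a replicate 1 and 1.68 without fl/fl -Wnt3a replicate 2. Itga6 was higher in D164A/- in the -TGFb cells, at 1.45 ± 0.41 (adjusted p 0.00777), lost with 1.05 without fl/fl -TGFb replicate 1 and 1.39 without D164A/- -TGFb replicate 1. In the -Wnt3a cells it was lower in dm/-, at -1.34 ± 0.41 (adjusted p 0.0166), lost with -1.15 without fl/fl -Wnt3a replicate 2 and -1.19 without dm/- -Wnt3a replicate 2, and in dm/fl, at -1.08 ± 0.41 (adjusted p 0.0357), lost with -1.27 without fl/fl -Wnt3a replicate 1, -0.33 without dm/fl -Wnt3a replicate 1 and -0.88 without fl/fl -Wnt3a replicate 2. Itga3 and Itgb4 were lower in D164A/- in the -TGFb cells, at -3.36 ± 0.63 (adjusted p 8.9e-05) and -1.86 ± 0.67 (adjusted p 0.0408), the latter lost with -1.53 without fl/fl -TGFb replicate 1, -1.70 without D164A/- -TGFb replicate 1, -2.19 without fl/fl -TGFb replicate 2 and -2.02 without D164A/- -TGFb replicate 2. Both were called in the -Wnt3a cells of dm/fl only without dm/fl -Wnt3a replicate 2, at 1.64 and 2.10. In that fit dm/fl rests on dm/fl -Wnt3a replicate 1, a library that stands apart.

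Itgav and Itgb1 were called in the -Wnt3a cells only. Itgav was lower in dm/fl at -1.48 ± 0.36 (adjusted p 0.00193), D164A/fl at -1.27 ± 0.36 (adjusted p 0.00782) and D164A/- at -1.04 ± 0.36 (adjusted p 0.0325). These were lost with -0.84 without dm/fl -Wnt3a replicate 1, with -1.22 without fl/fl -Wnt3a replicate 1 and -0.82 without D164A/fl -Wnt3a replicate 2, and with -0.99 without fl/fl -Wnt3a replicate 1, -1.13 without D164A/- -Wnt3a replicate 1, -1.09 without fl/fl -Wnt3a replicate 2 and -0.95 without D164A/- -Wnt3a replicate 2, while deltaC/fl was called with -1.23 without deltaC/fl -Wnt3a replicate 1. Itgb1 was lower in dm/fl at -2.60 ± 0.51 (adjusted p 2.0e-04), dm/- at -1.86 ± 0.51 (adjusted p 0.00689), deltaC/fl at -1.69 ± 0.51 (adjusted p 0.0169) and D164A/fl at -1.48 ± 0.51 (adjusted p 0.0294). In the same order these were lost with -1.26 without dm/fl -Wnt3a replicate 1, with -1.78 without fl/fl -Wnt3a replicate 1 and -1.54 without dm/- -Wnt3a replicate 2, with -1.61 without fl/fl -Wnt3a replicate 1, -1.77 without fl/fl -Wnt3a replicate 2 and -1.10 without deltaC/fl -Wnt3a replicate 2, and with -1.40 without fl/fl -Wnt3a replicate 1, -1.56 without fl/fl -Wnt3a replicate 2 and -1.04 without D164A/fl -Wnt3a replicate 2. With all 3 libraries that stand apart left out, the Itgb1 value of -1.26 in dm/fl was called. That fit also called, beyond those given, Itga5 at -1.22 and Itgb1 at -1.34 in D164A/-, Itgb4 at 1.74 in deltaC/fl, Itgb1 at -1.28 in deltaC/- and Itga2 at 1.35 in dm/-. fl/fl -Wnt3a cells had the highest levels of Itgb1 among the genotypes, 2172 and 1938 CPM, and no other -Wnt3a sample overlapped them. These 2 samples had GC slopes of -0.61 and -0.89, and the transcripts of Itgav and Itgb1 are 43.5% and 42.9% GC. With the GC trend of each library removed, 8 member calls of untreated cells were lost and 15 gained, over both experiments. The sign changed in 1 value called in at least 1 of the fits, and in 9 values called in neither. The part of GC content in the Itgav and Itgb1 calls was not tested.

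The Wnt3a comparison asks how cells of these genotypes change on a Wnt ligand. limma called 0 of 10 in fl/fl (0.378% of all genes), 2 of 10 in D164A/fl (4.15% of all genes), 1 of 10 in D164A/- (0.654% of all genes), 0 of 10 in deltaC/fl (0.225% of all genes), 0 of 10 in deltaC/- (0.0509% of all genes), 0 of 10 in dm/fl (0.574% of all genes) and 0 of 10 in dm/- (0% of all genes). It called 0 members in fl/fl, deltaC/fl, deltaC/-, dm/fl and dm/-. There the member counts at an unadjusted p under 0.05 were 1, 3, 0, 4 and 0, and edgeR called 0 in each. Among the 13754 genes tested, 1871, 359, 367, 2300 and 29 were under that unadjusted p, in the same order. For dm/- limma called 0 genes of any kind, 29 were under an unadjusted p of 0.05, and edgeR called 0. The log2 difference between the 2 +Wnt3a samples of dm/- had an SD of 1.37, the second largest of the 28 conditions, and their GC slopes were -0.64 and 1.40. In all, limma called 3 of 70 member responses, 4.29% against 0.862% of all gene responses, and they were of Itgb3 and Itgb6. In that fit Itga1, Itga2, Itga3, Itga5, Itga6, Itgav, Itgb1 and Itgb4 were called in no genotype. With samples blocked by replicate number there were 7 member calls and 2208 gene calls, though the labels do not say what the numbers share. Without the 3 libraries that stand apart there were 2, both of Itgb3, with 916 gene calls against 830. Without fl/fl +Wnt3a replicate 2 the count was 6 and the gene calls 2040, the calls gained including Itga2 at -2.94 and Itgav at -1.36 in fl/fl, which then rests on fl/fl +Wnt3a replicate 1, a library that stands apart. Without dm/fl -Wnt3a replicate 2 they were 10 and 6729, with dm/fl then resting on dm/fl -Wnt3a replicate 1, which also stands apart: Itgb1 3.28, Itga6 1.96, Itga2 1.85, Itgav 1.42, Itgb6 1.29, Itga3 -1.92 and Itgb4 -2.33.

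Itgb3 read 17.4 and 25.5 CPM in D164A/fl, and 68.4 and 34.6 in D164A/- without Wnt3a. With Wnt3a it read 1.24 and 1.86 CPM in D164A/fl, and 19.3 and 3.72 in D164A/-. Treated samples were below untreated samples in both genotypes, and the other 5 genotypes had at most 1.44 CPM with or without Wnt3a. The response was -3.13 ± 0.45 (adjusted p 7.1e-06) in D164A/fl, or -2.86 without D164A/fl -Wnt3a replicate 2, called either way. In D164A/- it was -2.34 ± 0.45 (adjusted p 0.00346), lost with -1.86 without D164A/- -Wnt3a replicate 1 and -1.29 without D164A/- +Wnt3a replicate 2, and edgeR did not call it. The same genotypes had risen for Itgb3 with TGFb, by 3.79 and 1.78; in fl/fl, the Wnt3a response was 0.06 ± 0.45. Itgb6 in D164A/fl read 6.28 and 5.59 CPM without and 13.4 and 16.5 CPM with Wnt3a. Its samples did not overlap, and it was called at 1.20 ± 0.36 (adjusted p 0.0442), a call that edgeR did not make and that was lost with each of its 4 libraries left out (1.27 without D164A/fl -Wnt3a replicate 1, 1.34 without D164A/fl +Wnt3a replicate 1, 1.12 without D164A/fl -Wnt3a replicate 2 and 1.05 without D164A/fl +Wnt3a replicate 2).

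**Figure D4:**
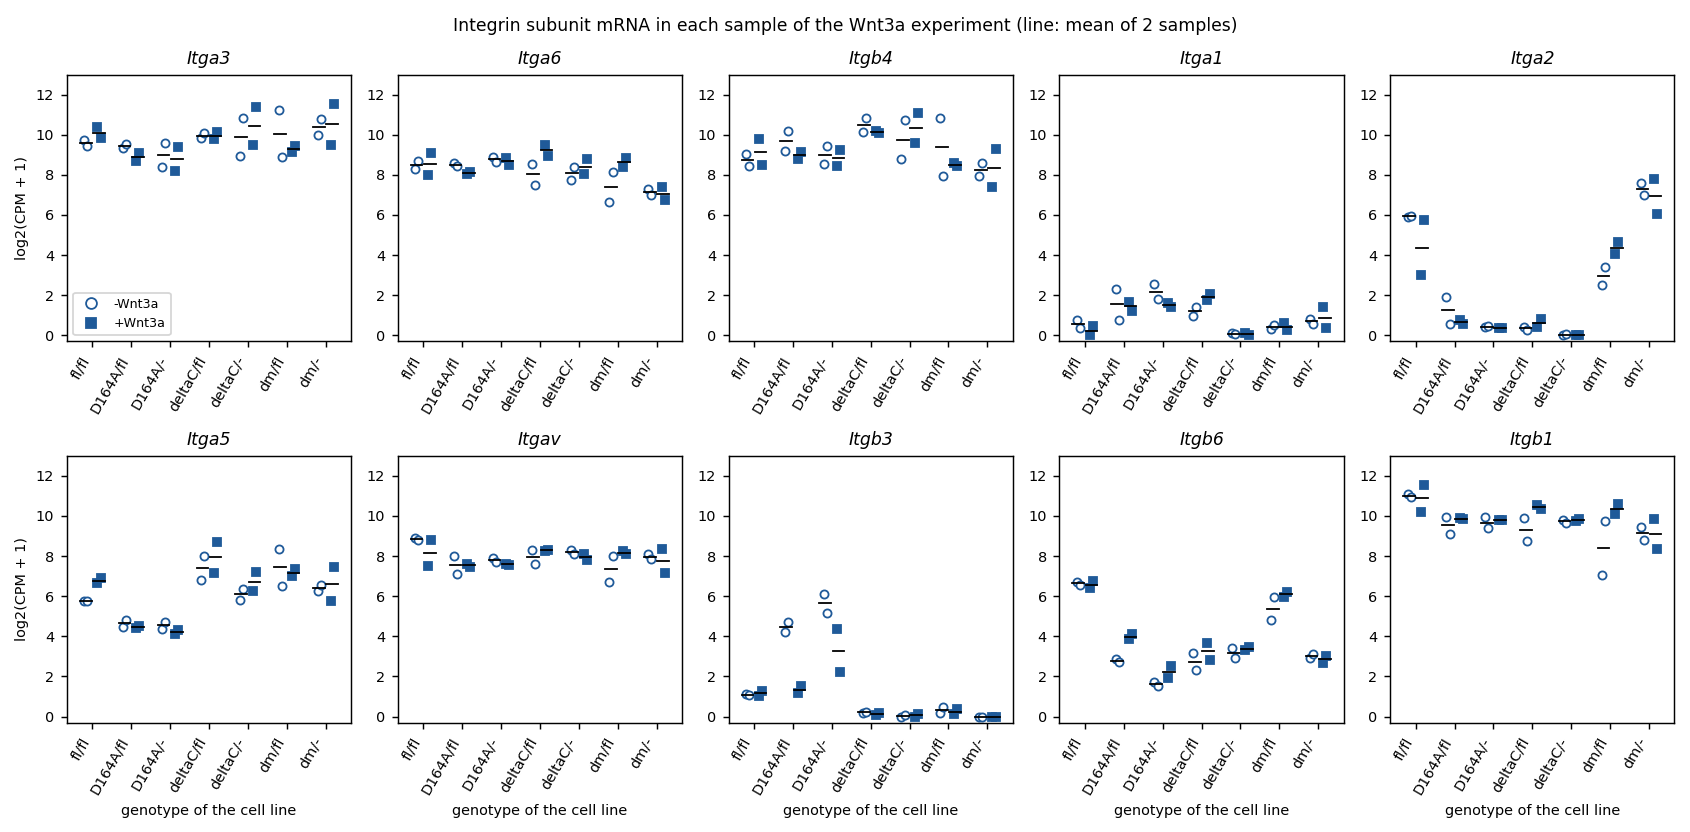
Level of the 10 integrin subunit genes in each sample of the Wnt3a experiment, as log2(CPM + 1), by genotype; open circles are untreated samples, filled squares Wnt3a-treated samples and lines the mean of the 2 samples. Itgb3 falls with Wnt3a in D164A/fl and D164A/-, and the 2 untreated samples of dm/fl lie apart for several genes.

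How the members varied together was described over the means of the 28 conditions, which share genotypes and so are not independent. Over the 45 pairs, Pearson's r of mean log2(CPM + 1) had a median of 0.03 and ran from -0.71 to 0.75. Itgav and Itgb1, whose products form a receptor together, had the highest r, 0.75 (rho 0.73, and r 0.64 after the GC trend of each library was removed). The fibronectin-binding Itga5 and the laminin-binding Itga6 had the lowest, -0.71 (rho -0.61, and r -0.69 after the GC trend of each library was removed). With the GC trend removed, Itga5 with Itgav was highest at 0.65 (from 0.49), and Itga3 with Itgav reached 0.60 (from 0.18). Before that removal, 1 pair was over 0.5, and the other 3 under -0.5 were Itga1 with Itga3 at -0.63, Itga2 with Itgb4 at -0.62 and Itga1 with Itgb6 at -0.54. Itga6 and Itgb4, partners in hemidesmosomes, had an r of 0.18, and Itga5 and Itgb1, partners in the fibronectin receptor, 0.27. The chromosome 13 neighbours Itga1 and Itga2 had an r of -0.29.

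The 3 tested genes whose means over the 28 conditions were most like a member, by Pearson's r, are named next for 9 members, those of Itga6 being not analysed here; with 13754 candidates for each, high values arise readily. They were Dusp7 (0.88), Bdkrb2 (0.85) and Ago2 (0.84) for Itga3 and Tmem104 (0.87), Fdxr (0.85) and Cib1 (0.85) for Itgb4 among the laminin-binding subunits. Among the collagen-binding subunits they were Gucy1a2 (0.88), Mef2c (0.88) and Casp12 (0.86) for Itga1 and Pmaip1 (0.92), Tmem159 (0.91) and Fundc2 (0.90) for Itga2. Myh9 (0.91), Adarb1 (0.90) and Adamts6 (0.89) were nearest to Itga5. In the alpha v group they were Cep170 (0.88), Map1b (0.82) and Pip4k2a (0.80) for Itgav, Hectd2 (0.88), Marcksl1 (0.85) and Cxxc4 (0.85) for Itgb3 and Fuom (0.91), Tram1l1 (0.89) and Stmn2 (0.89) for Itgb6, and Ube2d2a (0.88), Jcad (0.88) and Cyb5r4 (0.86) for Itgb1. Spearman's rho of these genes ran from 0.48 to 0.93.

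Other genes of the same system were read in the TGFb response averaged over the 7 genotypes, from lists chosen with earlier results of these data known. Of all genes tested, 2.68% were called higher and 2.20% lower in that response. Of the 16 other integrin subunit genes, 10 were tested, 1 was called higher, Itgb5 (1.01), a partner of alpha v, and 1 lower, Itga8 (-1.76); their median was -0.12, against -0.02 over all genes. Of 30 genes listed as adaptors, kinases and other partners of integrins, 3 were called higher, Tns1 (3.81), Fermt1 (1.97) and Ptk2b (1.01), and limma called 0 lower (median 0.48). Among 8 tested of the 10 laminin genes used here, 2 were called higher, Lamb1 (1.26) and Lamb3 (1.08), and 0 lower (median -0.15). Among 13 of 14 RGD and matrix ligands tested, 4 were called higher, the 3 largest being Tnc (5.61), Fn1 (2.80) and Ltbp2 (2.05). Tgfb2 (-1.09) was the 1 called lower (median 0.78). By genotype, their median ran from -0.50 in dm/fl to 1.49 in dm/-. In dm/fl 2 were called higher and 5 lower, against 3.45% and 6.88% of all genes. Of 9 collagen genes, 1 was called higher in the averaged response, Col1a1 (2.27), and 1 lower, Col6a2 (-1.10) (median 0.30). By genotype, their median ran from -0.66 in dm/fl to 1.16 in deltaC/fl. Of the 6 hemidesmosome partners of alpha6 beta4, limma called 0 in either direction (median -0.15). Fn1, the ligand of alpha5 beta1, had a positive log2 fold change in all 7 genotypes and was called higher in 6. The values ran from 0.68 in dm/fl, which was not called, to 4.90 in D164A/-, where Itga5 was not called. In D164A/-, Fn1 read 80.4 and 259.8 CPM untreated and 2535 and 7494 CPM with TGFb. With TGFb it read 32585 and 27751 CPM in D164A/fl, where Itga5 was not called either. In deltaC/-, where Itga5 was called, the treated samples read 45141 and 63936 CPM. Of the marker lists, basal markers had 1 called higher, Acta2 (1.20), and 1 lower, Trp63 (-1.88); the fibroblast list had Col1a1 (2.27) higher, the leukocyte list Cd68 (-1.04) lower and the endothelial list Cdh5 (1.21) higher.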

How the data were processed

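Poly(A) RNA of 56 samples was sequenced; the authors mapped single-end reads to mm10 with STAR, counted reads per RefSeq gene with QuasR and deposited the signal as CPM, whose columns carry scaling factors in their library sizes. All values, 100% within 0.001 reads, were whole multiples of 1 read, so whole reads were recovered per sample (22.4 to 33.7 M). Tests covered the 13754 genes that reached 1 CPM in 2 or more samples, using limma 3.58.1 (R 4.3.3) on log2(CPM + 1), with 1 coefficient per condition and eBayes with trend (28 residual degrees of freedom); p-values were adjusted over all genes tested. edgeR 4.0.16 was run on whole reads as an alternative; it called 1283 genes in the averaged response. Tables and figures were made with Python 3.11.15. The code was tested on simulated data.

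All 10 members are named in every comparison, with the 3 largest called changes per direction of each other list, and the 3 genes most like each of 9 members. Some genes of the lists are not used here. Members and lists were chosen with earlier results of these data known. Alternatives changed the pseudocount, the filter, the scaling, the tool, the replicate block, the GC trend and the samples fitted; those added after seeing the data were the alternatives for untreated levels, leaving out libraries nearest to another genotype, exchanged replicate numbers and the GC trend in correlations.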

Additional observations from a re-analysis of the deposited data

Results flagged for a closer look

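Responses to TGFb that differed between genotypes by a test of the difference itself are set apart here. Against fl/fl, the response of Itgb3 in log2(CPM + 1) was called lower in all 6 mutant genotypes: -3.24 in D164A/fl, -5.26 in D164A/-, -3.18 in deltaC/fl, -3.85 in deltaC/-, -2.30 in dm/fl and -2.29 in dm/-, as differences of log2 fold changes. By edgeR, and with 0.1 CPM added in place of 1, only D164A/fl and D164A/- were called; dm/- was then 5.21 and 0.53, and deltaC/- 1.14 and -1.30, so the sign in both depended on the scale. The calls in dm/fl and dm/- were lost without any 1 of 6 of the 8 libraries compared. Itga5 responded less in D164A/fl (-2.88) and D164A/- (-2.50), and Itga2 in D164A/fl (-2.74). Of these 3, edgeR called only Itga5 in D164A/fl; in this order they were lost without any 1 of 4, 7 and 7 of the 8 libraries compared. These 9 differences share the fl/fl samples. Between lines with and without the floxed allele, Itga2 responded less in deltaC/- than in deltaC/fl (-2.98 in log2(CPM + 1)). This was not called by edgeR or without any 1 of 7 of the 8 libraries, and deltaC/- held 5 reads with TGFb and 3 without. The test of any difference among the 7 genotypes gave adjusted p of 1.1e-05 for Itgb3, 2.9e-04 for Itga2, 0.00459 for Itga5 and 0.0383 for Itgb6, the last lost without any 1 of 14 of the 28 TGFb libraries.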

How the results depend on the processing

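Counts are genes, or members of 10 per comparison, past the thresholds. With all settings as reported they were 671 genes for the averaged TGFb response, 2515 genes and 4 members differing among genotypes, 2697 genes and 9 member calls for mutants minus fl/fl, 1620 and 1 for deleted minus floxed lines, 830 and 3 for Wnt3a, 14053 and 19 for untreated -TGFb cells, and 16101 and 25 for untreated -Wnt3a cells. Counts not given below stayed within 1.5 times these. The cause of each change was not tested, save where samples or genes were left out.

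With 0.1 CPM added, the averaged response had 1272 genes and the mutants minus fl/fl 5 member calls. With no filter, 2 members were called lower with TGFb, not 4. By edgeR the counts were 1283 averaged, 1504 among genotypes, 987 genes and 3 members minus fl/fl, 720 genes for deleted lines, and 453 genes and 1 member for Wnt3a. Scaling by the median of ratios changed none of these counts by 1.5 times. Among member values called in at least 1 of the fits, signs changed for Itgb3 in dm/- minus fl/fl (0.53 with 0.1 CPM added, 5.21 by edgeR). They also changed for Itgb3 in deltaC/- minus fl/fl (1.14 by edgeR). Itga1 in untreated -Wnt3a dm/fl cells against fl/fl changed as well (1.13 with the GC trend removed, with or without the block). Values called in neither fit changed sign more often. With the GC trend removed these were 20 Wnt3a responses, 9 untreated levels, 4 TGFb responses and 4 differences of responses. By edgeR they were 3 differences of responses, 2 Wnt3a responses, 2 untreated levels and 1 TGFb response.

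The labels do not say what the replicate numbers share. As a check of pairing, the deviations of same-numbered untreated and treated samples from the means of their groups were correlated over all genes tested: r was 0.66 in fl/fl, 0.58 in D164A/fl, 0.33 in D164A/-, 0.46 in deltaC/fl, -0.20 in deltaC/-, 0.52 in dm/fl and 0.46 in dm/- with TGFb, and 0.51 in fl/fl, 0.67 in D164A/fl, 0.89 in D164A/-, 0.81 in deltaC/fl, 0.93 in deltaC/-, -0.07 in dm/fl and 0.74 in dm/- with Wnt3a. Since deltaC/- with TGFb and dm/fl with Wnt3a were not over 0.1, the numbers were not taken as pairs. With the replicate block, TGFb responses had 910 in D164A/fl, 877 in D164A/-, 1363 in deltaC/- and 1382 in dm/- called genes; 4775 genes and 7 members differed among genotypes, 5396 genes minus fl/fl, 3510 genes and 8 members for deleted lines, and 2208 genes and 7 members for Wnt3a. In deltaC/- the block gave 1363 genes, and 1364 with the replicate numbers of its treated samples exchanged, against 901 without a block; numbers were exchanged in no other genotype. With the GC trend removed, 7 members differed among genotypes and 5 for deleted lines; with the block as well, 945 in D164A/fl, 968 in D164A/-, 1517 in deltaC/- and 1514 in dm/- genes were called, 7755 genes and 9 members among genotypes, 7191 and 18 minus fl/fl, 4583 and 8 for deleted lines, and 2168 and 5 for Wnt3a.

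Fitted on the 28 samples of 1 experiment, the counts were 1019 in D164A/fl, 866 in D164A/-, 1376 in deltaC/- and 1352 in dm/- genes, 5602 genes and 10 members among genotypes, 5286 genes minus fl/fl, 3609 genes and 7 members for deleted lines, 29 members in untreated -TGFb cells, 498 genes for Wnt3a, and 10058 genes and 16 members in untreated -Wnt3a cells. On the 4 samples of a genotype alone, 1187 genes in D164A/fl, 970 genes in D164A/- and 1496 genes in deltaC/- were called. Without the 3 libraries nearest to another genotype, 4 members were called for deleted lines. No TGFb sample was left out there, so only the spread and degrees of freedom of the fit changed: 20 member responses to TGFb were called higher and 6 lower.

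Leaving out each library in turn, a lone sample being assumed to vary like the other groups, gave TGFb counts of 600 to 663 in fl/fl (860 with all), 192 to 378 in D164A/fl (465 with all), 317 to 458 in D164A/- (559 with all), 605 to 956 in deltaC/fl (1064 with all), 486 to 669 in deltaC/- (901 with all), 908 to 1207 in dm/fl (1420 with all) and 468 to 732 in dm/- (842 with all), the lowest of the last 6 without D164A/fl -TGFb replicate 1, D164A/- -TGFb replicate 1, deltaC/fl +TGFb replicate 1, deltaC/- +TGFb replicate 2, dm/fl -TGFb replicate 1 and dm/- -TGFb replicate 2. Member responses called higher ran from 14 to 15, lower from 1 to 5 (lowest without deltaC/fl -TGFb replicate 2); the averaged response from 640 to 726 genes and 3 to 3 members; differences among genotypes from 2139 to 2460 and 3 to 4; minus fl/fl from 1889 to 2689 and 4 to 10 (lowest without fl/fl +TGFb replicate 2); deleted lines from 1158 to 1609 and 0 to 2; untreated -TGFb cells from 11813 to 13959 and 14 to 20; untreated -Wnt3a cells from 10740 to 21086 and 17 to 32; Wnt3a from 640 to 6729 and 2 to 10, highest without dm/fl -Wnt3a replicate 2 (6 member responses without fl/fl +Wnt3a replicate 2). Of the refits of member responses to TGFb, each without 1 of the libraries compared, 20 lost and 1 gained a call. The sign changed in 0 refits of responses called with or without the library, and in 14 refits of responses called in neither fit.

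Depth limits Itga1, Itga2 and Itgb3, which were at 3 reads or fewer in some samples: differences of a few reads were not detectable there. With 2 samples a condition, and genotype and cell line not separable, differences between genotypes are differences between these lines.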
